A study of Mus musculus with 15 samples.

Results

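Lungs of mice that received mesenchymal stem cells (MSCs) late in an allergen course were compared with lungs of mice that received them early, across all expressed genes. Of the 15 libraries in the series, 9 entered the comparison: 4 late-MSC libraries and 5 early-MSC libraries. All 9 came from female wild-type C57BL/6 mice challenged intranasally with 10 µg of house dust mite (HDM) extract, 5 days a week over 2 weeks. Lungs were collected on day 15. The early-MSC mice received 500000 adipose tissue-derived MSCs through the nose on day 6, so 9 days lay between the cells and the lung sample, and the labels call this the long-term group. The late-MSC mice received 500000 of these cells on day 13, so 2 days lay between, and the labels call this the short-term group. Every group carried the same HDM challenge, and no saline-treated lung was analysed here, so each value compares one inflamed, MSC-treated lung with another. The sources used here do not give the donor of the MSCs. The libraries were chosen by the labels' day of MSC treatment, the 5 libraries of HDM alone were not used, and late-MSC replicate 3 was left out because its RNA carries thymocyte transcripts.

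MSCs are stromal cells that secrete mediators acting on immune, epithelial and endothelial cells, and cells given through the airway are cleared from the lung over time. HDM extract drives an airway inflammation of the type 2 and mixed kinds, with B-cell and plasma-cell responses, mucus production and remodelling of the extracellular matrix. A difference between the late and early groups therefore sets a lung 2 days after the cells beside one 9 days after them, under the same allergen course. The time since the cells and their place within the allergen course change together in this design, so they cannot be told apart.

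Total counts ran from 31762964 to 41762167 in the early-MSC libraries and from 26945272 to 32119067 in the 4 late-MSC libraries, with between 26749 and 27934 genes detected in each. Late-MSC replicate 3 held 17182599 counts and 43174 genes. Rag1, part of the recombinase that builds antigen receptors in immature lymphocytes, reached 2024 CPM (counts scaled to the library's size) there. It held 0.156 to 1.27 CPM in the early libraries and 0.369 to 7.26 CPM in the late libraries compared. The highest of these values were in late-MSC replicate 4 (7.26 CPM) and late-MSC replicate 2 (2.46 CPM), so Rag1 was not evenly low across the groups. The 14 thymocyte-list genes together summed to 6025 CPM in that library, to 143 to 181 CPM in the early group and to 147 to 195 CPM in the late group, and none of the 14 was at 0 in all 9 libraries. The lung identity held in all 9: Sftpc, the surfactant protein of type 2 alveolar cells, lay between 6395 and 9101 CPM, and Scgb1a1, the club-cell secretoglobin, lay between 6415 and 9174 CPM. The first principal component carried 23.62% of the variance and placed the late libraries between -6.94 and 35.9 and the early libraries between -25.1 and 11.7, so the groups overlapped on it. Late-MSC replicate 5 stood at 35.9, the highest of the 9. The labels give each library as its own sample but tie none to a named mouse. Each library was therefore taken as 1 replicate, and the p-values set the group difference against the variation between these libraries.

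In edgeR's quasi-likelihood test with Benjamini-Hochberg adjustment, 1 of 19315 genes passed an adjusted p of 0.05. It was Spon2, the gene of the matrix protein spondin 2, and it was lower in the late-MSC lungs. The called share was 0.00518% of the genes tested for genes lower in late, and no gene was called higher. The second gene, Elovl1, had an adjusted p of 0.0903, and the smallest adjusted p of a gene higher in late was 0.160. At an unadjusted p under 0.05, edgeR counted 1832 genes, or 9.48% of those tested: 1061 were higher in late (5.49%) and 771 were lower (3.99%). In 297 genes (1.54%) all 4 late libraries lay above all 5 early libraries, and in 271 genes (1.4%) all 4 lay below. The log2 fold change, late minus early, had a median of -0.0021 and ran from -0.26 to 0.45 between the 5th and 95th percentiles. At least a 1.5-fold difference in either direction was found for 582 genes, of which 214 had a mean of at least 1 CPM. The standard error of a log2 fold change had a median of 0.088 among the 16293 genes at or above that level. DESeq2, run as an alternative, gave an adjusted p to 15559 genes and called 70: 21 were higher in late (0.135%) and 49 were lower (0.315%).

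**Figure D1:**
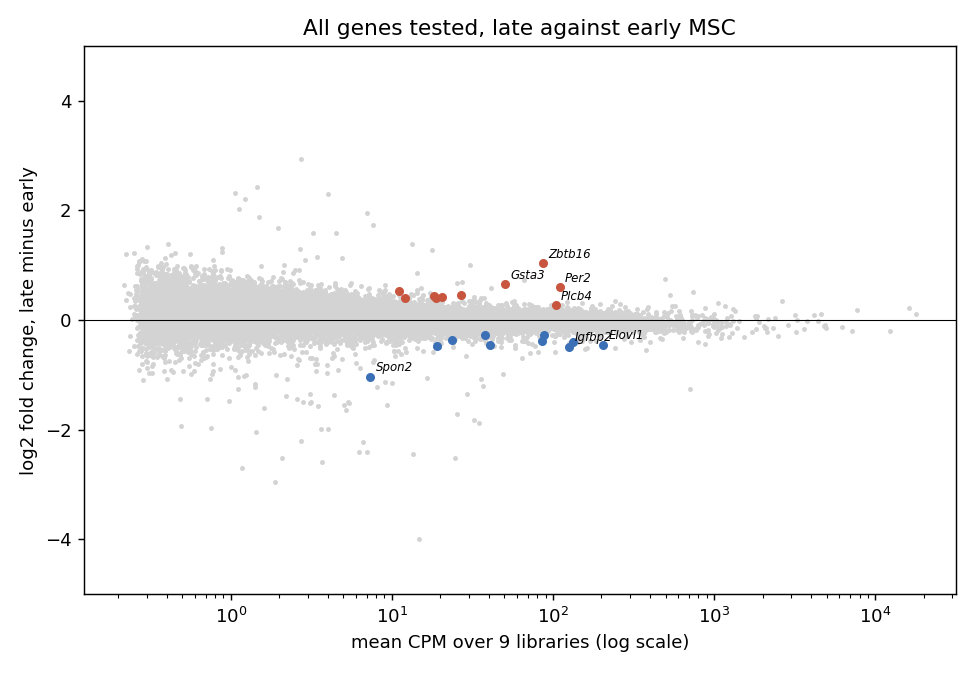
Each point is 1 of the 19315 genes tested, placed by its mean CPM over the 9 libraries (log scale) and its log2 fold change, late minus early MSC. The 20 coloured points are the 10 genes with the smallest p in each direction (red higher, blue lower in late); Spon2 alone passed edgeR's adjusted threshold in the main comparison, at a log2 fold change of -1.03.

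Spon2 encodes spondin 2, a secreted matrix protein that binds microbial products and integrins and takes part in innate immune defence. The gene (ENSMUSG00000037379) lies on the minus strand at chr5:33198184-33218455 (GRCm38). The 5 early-MSC libraries held 11.5, 9.41, 7.80, 10.4 and 8.29 CPM. The 4 late-MSC libraries held 4.40, 4.43, 4.86 and 4.81 CPM. The groups did not overlap, and the late values were close to one another. The mean was 9.48 ± 1.52 CPM (SD, n = 5) in early and 4.63 ± 0.244 CPM (SD, n = 4) in late, a ratio of 0.488. These levels rest on 250 to 363 reads per early library and 132 to 154 per late library. The log2 fold change was -1.03 (SE 0.12, 95% interval -1.30 to -0.77), with an adjusted p of 0.0251 in edgeR's test. Late-MSC replicate 3, outside the comparison, held 2.82 CPM, which lies below all 9. Other lung genes were low in that library too. Its summed type 2 alveolar list held 11470 CPM, against 24540 to 28820 CPM early and 23070 to 24820 CPM late. Its summed matrix list held 6093 CPM, against at least 11880 CPM in the libraries compared, so nothing is read from its Spon2 value.

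Spon2 kept a log2 fold change between -1.15 and -0.95 under all 21 alternative settings, and its adjusted p was under 0.05 in 8 of them. The 8 were 2 other scalings (0.0248 and 0.0394), 2 other filters on low counts (2.77e-05 and 0.0331), DESeq2 (3.44e-10), limma voom (0.0346), and the fits without early-MSC replicate 3 (0.0166) or early-MSC replicate 5 (0.0443). It missed without early-MSC replicate 1 (0.0599), replicate 2 (0.103) or replicate 4 (0.093). It also missed without late-MSC replicate 1 (0.0957), replicate 2 (0.141), replicate 4 (0.118) or replicate 5 (0.0664), and without robust shrinkage (0.062). With late-MSC replicate 3 added the adjusted p was 0.198, with the HDM libraries in the fit 0.379, with all 15 libraries 0.26 and with 1 surrogate variable 0.193. Spon2 was not called in the test against a fold change of 1.5 either.

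The other 19 genes with the smallest p, chosen by the stated rule, did not pass the edgeR threshold, with adjusted p between 0.0903 and 0.392, and are given as values. DESeq2 called all 20 leading genes, Spon2 included, and without a filter on low counts edgeR called 11 of them. In each of the 20 the late and early libraries did not overlap, and since they were chosen by p nothing is read from this. The sign of each held under all 21 alternatives.

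**Figure D2:**
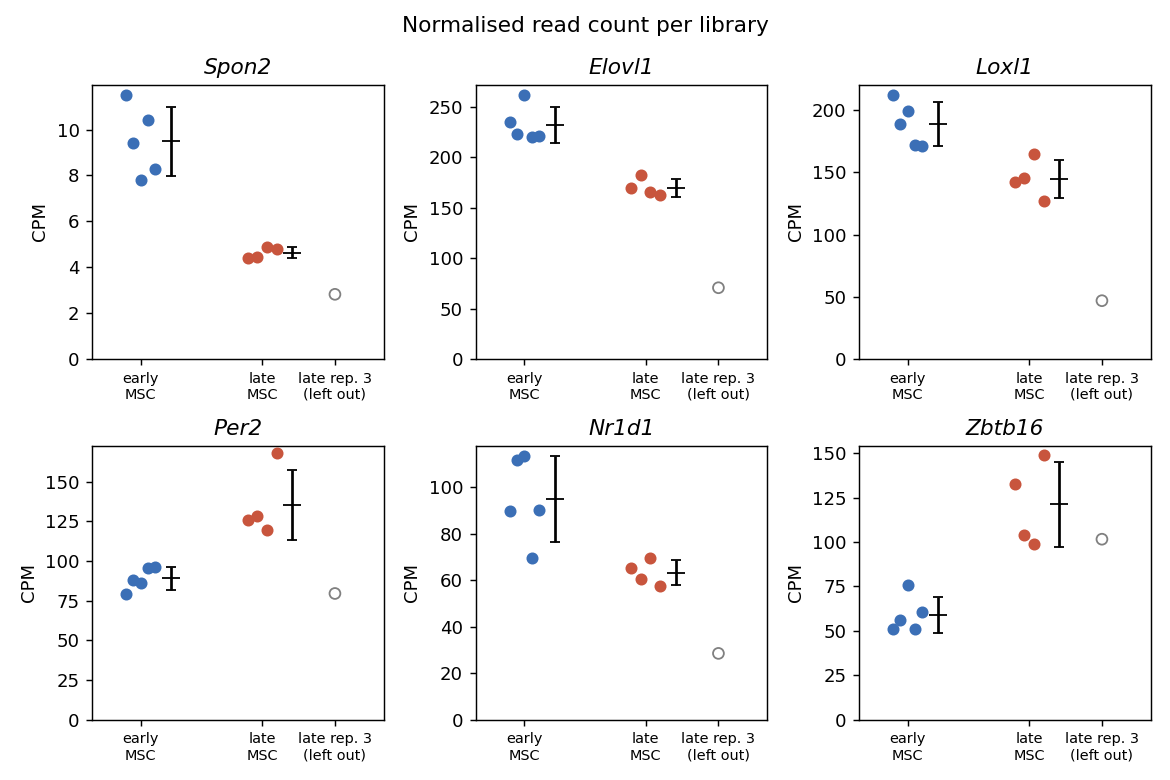
CPM (vertical axis) of Spon2, Elovl1, Loxl1, Per2, Nr1d1 and Zbtb16 in each early-MSC library (blue, 5), each late-MSC library (red, 4) and the left-out late-MSC replicate 3 (open circle); black marks give the mean and SD. Spon2, Elovl1 and Loxl1 lie lower in every late library, Per2 and Zbtb16 lie higher in every late library, and in Nr1d1 late-MSC replicate 4 (69.6 CPM) lies just above early-MSC replicate 4 (69.3 CPM).

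Elovl1, a fatty acid elongase of very long chains, held 235, 224, 262, 220 and 221 CPM in the early libraries and 169, 183, 165 and 162 CPM in the late libraries. The log2 fold change was -0.45 (SE 0.06, 95% interval -0.59 to -0.31). In 53 bases it overlaps Cdc20 on the opposite strand, a gene with 3437 counts over the 9 libraries against 61138 for Elovl1. Sox4, a transcription factor of progenitor cells, held 101, 102, 89.3, 93.6 and 88.6 CPM early and 77.9, 77.4, 72.6 and 64.1 CPM late, a log2 fold change of -0.38 (SE 0.07). Igfbp2, a binding protein of insulin-like growth factors and a gene of type 1 alveolar cells, had means of 145 ± 15.2 CPM early and 103 ± 13.4 CPM late (SD, n = 5 and 4). The others on the lower side were carboxypeptidase M (Cpm, log2 fold change -0.41), the Src adaptor Afap1l2 (-0.37), the interleukin-18 receptor chain Il18r1 (-0.28), Tmem132c (-0.45), Ddah2 (-0.26) and C1qtnf2 (-0.47).

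Among the 10 leading genes higher in late, Zbtb16, the zinc-finger factor PLZF, had the largest log2 fold change of the 10, and it is known as a target of the glucocorticoid receptor. The early libraries held 50.9, 56.2, 76.0, 51.3 and 60.4 CPM and the late libraries 132, 104, 99.1 and 149 CPM, so the lowest late value (99.1 CPM) lay above the highest early value (76.0 CPM). The mean was 59.0 ± 10.3 CPM early and 121 ± 23.7 CPM late, and the log2 fold change was 1.04 (SE 0.15, 95% interval 0.70 to 1.38). Its adjusted p was 0.247 in edgeR's test. Gsta3, a glutathione transferase abundant in club cells, held 33.5, 39.8, 50.7, 34.5 and 42.5 CPM early and 55.0, 53.7, 66.5 and 78.7 CPM late, a log2 fold change of 0.66. The remaining genes on the higher side were Map3k6, a kinase of the MAP kinase cascade (0.46), the calcium pump Atp2b2 (0.45), the phospholipase Plcb4 (0.28), Srcin1 (0.40) and the ciliary gene Cys1 (0.53), besides genes of the circadian clock.

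The core clock is a feedback loop in which the Clock, Npas2 and Arntl activators drive Per and Cry repressors, and in which nuclear receptors (Rora, Nr1d1, Nr1d2) set the level of Arntl. The PAR-domain factors Dbp, Tef and Hlf and the repressor Nfil3 pass the rhythm on to output genes. All 20 listed clock genes were tested. None passed the adjusted threshold in edgeR's main test, while DESeq2 called 3 higher and 1 lower, and edgeR without a filter on low counts called 2 higher. At an unadjusted p under 0.05 in the main test, 8 were higher in late and 2 lower, and 5 lay wholly above the early group and 1 wholly below. Over all genes tested, 5.49% were higher and 3.99% lower at that threshold, 1.54% lay wholly above and 1.4% wholly below. The counts of every list below are to be read beside these shares. The median log2 fold change of the 20 was 0.16, against -0.0021 for all genes. In the late libraries the median over the list was 0.19, 0.13, 0.09 and 0.26 (log2, relative to the early mean), and in the early libraries it lay between -0.07 and 0.08.

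The promoters of 3 clock genes are shown to place the known clock motifs, because the Per and Cry genes and Nr1d1 are textbook targets of these elements. The windows run from 250 bases before to 50 after the gene start and are from RefSeq (GRCm38.p6), on the minus strand, written 5′ to 3′; capitals mark the E-box CACGTG or E′-box CACGTT on either strand, or the D-box TTATGTAA.
Cry1, chr10:85185005-85185304: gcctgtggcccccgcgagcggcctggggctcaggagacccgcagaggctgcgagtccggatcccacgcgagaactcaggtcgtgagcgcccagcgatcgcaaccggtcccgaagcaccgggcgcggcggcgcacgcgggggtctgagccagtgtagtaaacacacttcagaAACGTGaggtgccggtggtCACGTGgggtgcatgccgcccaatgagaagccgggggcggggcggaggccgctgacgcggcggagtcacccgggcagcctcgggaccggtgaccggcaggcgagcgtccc
Per3, chr4:151044616-151044915: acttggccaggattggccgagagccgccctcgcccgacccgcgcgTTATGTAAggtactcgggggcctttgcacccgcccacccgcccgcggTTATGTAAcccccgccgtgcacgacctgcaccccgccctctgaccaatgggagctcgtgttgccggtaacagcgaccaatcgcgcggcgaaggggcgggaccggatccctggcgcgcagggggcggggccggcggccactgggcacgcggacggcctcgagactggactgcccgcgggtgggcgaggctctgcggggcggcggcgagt
Nr1d1, chr11:98775328-98775627: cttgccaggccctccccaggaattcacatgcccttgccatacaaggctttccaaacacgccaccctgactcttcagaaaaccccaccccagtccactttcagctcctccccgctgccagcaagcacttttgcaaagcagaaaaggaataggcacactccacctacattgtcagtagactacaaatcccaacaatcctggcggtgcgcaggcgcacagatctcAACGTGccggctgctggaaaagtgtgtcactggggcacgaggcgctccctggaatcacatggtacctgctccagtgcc
Windows were found for 17 of the 20 clock genes, 22 windows in all, with more than 1 for some genes. Per2 and Bhlhe40 were among the genes without a window, so their promoters were not searched for the motifs. The E-box was present in the windows of 5 of the 17 genes (Ciart, Bhlhe41, Cry1, Per1 and Tef), the E′-box in 3 (Cry2, Cry1 and Nr1d1) and the D-box in 1 (Per3, with 2 copies). By windows, the E-box was in 6 of the 22, the E′-box in 3 and the D-box in 1. Among all 32851 RefSeq windows of the same length, the E-box was found in 7.15%, the E′-box in 4.68% and the D-box in 0.938%. A match is a description of these letters, not a bound site, and matches were not compared with the fold changes.

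Per2, the period repressor, held 79.3, 88.4, 86.1, 95.5 and 96.6 CPM in the early libraries and 125.9, 128, 120 and 168 CPM in the late libraries. No library of one group entered the range of the other. The means were 89.2 ± 7.11 CPM and 136 ± 22.1 CPM, and the log2 fold change was 0.60 (SE 0.10, 95% interval 0.40 to 0.81) with an edgeR adjusted p of 0.160. Late-MSC replicate 5 was the highest at 168 CPM, and the left-out late-MSC replicate 3 held 79.6 CPM. As with Spon2, nothing is read from the value of the left-out library.

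Cry1, the cryptochrome repressor, held 15.6, 14.4, 15.9, 18.6 and 18.0 CPM early and 20.1, 21.2, 23.2 and 23.1 CPM late. The groups did not overlap, and the log2 fold change was 0.41 (SE 0.08, 95% interval 0.23 to 0.59) with an edgeR adjusted p of 0.343.

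Another 5 genes had an unadjusted p under 0.05, a higher late level and no adjusted call in edgeR's test. They were Cry2 (53.0 ± 4.10 CPM early, 62.7 ± 3.69 late, log2 fold change 0.24), Per3 (0.32), Hlf (0.28), Tef (0.19) and the clock-linked deubiquitinase Usp2 (0.26). Cry2 and Hlf did not overlap between groups, whereas Per3, Tef and Usp2 did. The Per3 gene shares 41014 bases of its span with Camta1 on the same strand. Camta1 had 4066 counts over the 9 libraries against 35794 for Per3. The sources used here do not say how reads in shared bases were counted.

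Nr1d1, the repressor REV-ERBα, went the other way. The early libraries held 89.6, 112, 114, 69.3 and 90.0 CPM and the late libraries 65.4, 60.4, 69.6 and 57.6 CPM. The log2 fold change was -0.58 (SE 0.13, 95% interval -0.88 to -0.28), with an unadjusted edgeR p of 0.0014 and an adjusted p of 0.392. Nr1d1 shares 1075 bases with Thra on the opposite strand, and the sources used here do not say whether counting used strand, so its reads and those of Thra cannot be told apart from these files. DESeq2 called Per2 and Cry1 as higher and Nr1d1 as lower. Dbp, the activator whose own gene is driven by the E-box, had a log2 fold change of -0.24 (95% interval -0.48 to 0.00) and overlaps Sphk2 by 737 bases. Arntl, Nr1d2 and Bhlhe40 had log2 fold changes of 0.04, -0.01 and -0.09. Clock itself lay wholly below the early group, by a small margin, with a log2 fold change of -0.11 (95% interval -0.21 to -0.01).

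**Figure D3:**
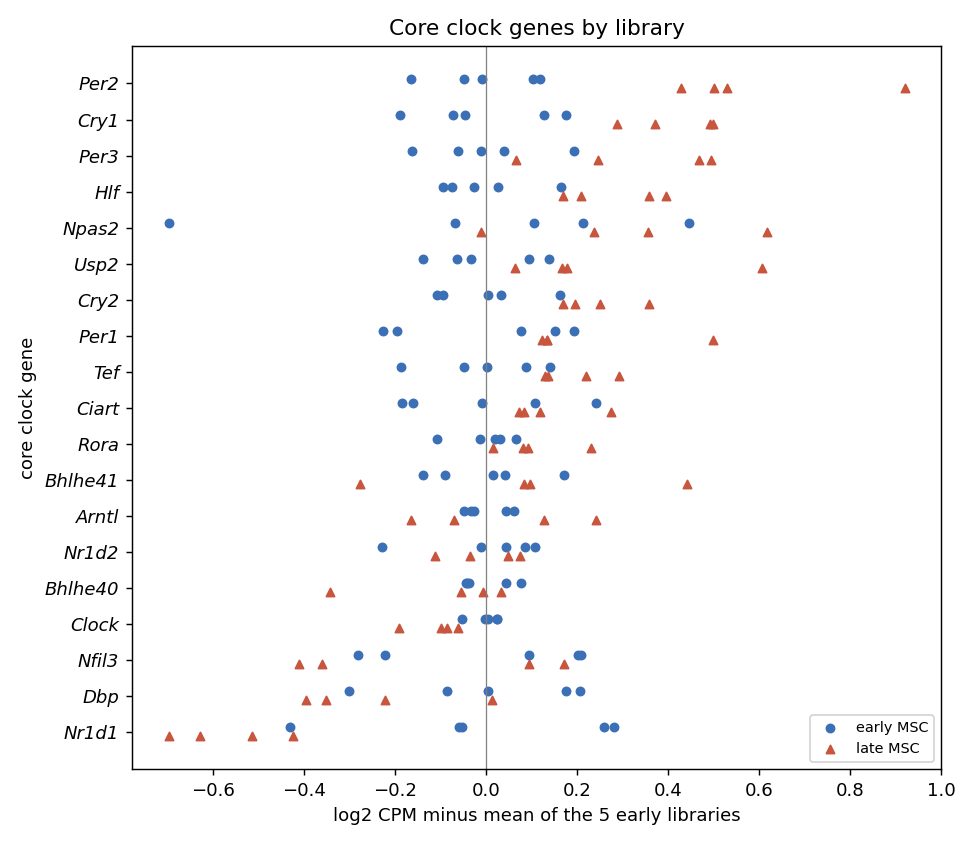
Each of the 19 rows is a core clock gene, and the horizontal axis is log2 CPM minus the mean of the 5 early libraries. Blue circles are early-MSC libraries (5) and red triangles late-MSC libraries (4); rows are ordered by the log2 fold change, from Per2 at 0.60 at the top to Nr1d1 at -0.58 at the bottom.

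The glucocorticoid-response list, 22 tested genes switched on by the steroid hormone receptor in many tissues, had a median log2 fold change of 0.03. Of the 22, 3 were higher in late at an unadjusted p under 0.05, and 1 was lower. EdgeR called none of them, and DESeq2 called 2 as higher, Zbtb16 and Hif3a. Zbtb16 (1.04), Hif3a (0.91) and Fkbp5 (0.40) were the higher ones and the transglutaminase Tgm2 (-0.17) the lower. Hif3a, a hypoxia-related factor, held 1.84, 2.22, 2.25, 1.71 and 1.58 CPM early and 3.91, 2.40, 2.71 and 5.40 CPM late. Fkbp5, the chaperone of the glucocorticoid receptor, held 35.96, 27.4, 29.2, 32.1 and 31.4 CPM early and 38.1, 34.3, 48.6 and 43.8 CPM late, and its groups overlapped at early-MSC replicate 1. Tsc22d3, which encodes GILZ, had a log2 fold change of 0.30 (95% interval -0.02 to 0.61), and Sgk1, Dusp1, Errfi1 and Nfkbia lay between -0.11 and -0.03. The sign of the list's median turned in 4 of the 20 alternatives that gave a list median, so no direction is read from it.

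Genes of the extracellular matrix were described in 27 members, all tested, which form, crosslink or cut the fibres of the lung. EdgeR called Spon2, DESeq2 called 3 as lower (Spon2, Loxl1 and Fbln5), and edgeR without a filter on low counts called 2. In the main test 10 genes were lower in late at an unadjusted p under 0.05 and none was higher. In 4 (Spon2, Loxl1, Fbln5 and Col4a1) all 4 late libraries lay below all 5 early libraries. The median log2 fold change was -0.23, and 24 of 27 were below 0. The members ran from -1.25 for Eln to 0.10 for Timp1.

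Eln, the gene of elastin, held 1357, 935.5, 784.7, 1140 and 536.6 CPM in the early libraries and 607.1, 384.3, 391.5 and 215.9 CPM in the late libraries. The spread within each group was wide, and late-MSC replicate 1 lay above early-MSC replicate 5, so the groups overlapped. The log2 fold change was -1.25 (SE 0.36, 95% interval -2.10 to -0.40), with an adjusted p of 0.465 in edgeR's test. Loxl1, which crosslinks elastin, held 212, 189, 199, 172 and 171 CPM early and 142, 146, 165 and 127 CPM late (log2 fold change -0.38, 95% interval -0.56 to -0.20). Fbln5, which guides elastin onto microfibrils, had means of 113 ± 4.30 CPM early and 93.5 ± 8.17 CPM late. The microfibril gene Fbn1 had a log2 fold change of -0.34 and Emilin1 one of -0.10.

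Col4a1 and Col4a2, the basement membrane collagens, had log2 fold changes of -0.31 and -0.23. Col4a1 held 1481, 1361, 1276, 1436 and 1230 CPM early and 1148, 1114, 1200 and 906.8 CPM late. The log2 fold changes of Col1a1, Col1a2 and Col3a1 were -0.13, -0.17 and -0.29, with intervals that span 0. Those of Col6a1, Col6a2 and Col6a3 were -0.03, -0.03 and -0.06. Fn1 and Postn stood at 0.02 and -0.00. In late-MSC replicate 5 the list median was -0.50 (log2 relative to the early mean), lower than in the other 3 late libraries (-0.20, -0.09 and -0.06), and early libraries ran from -0.20 to 0.22, so the list's libraries overlapped. The summed matrix list ran from 13970 to 19640 CPM early and 11880 to 15020 CPM late.

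TGF-beta is known as an inducer of matrix genes, and its pathway is shared with the BMPs, with Tgfb1 to Tgfb3 as ligands, Smad proteins as mediators and Id genes as targets of the BMP arm. Of 22 tested members, 5 were lower in late at an unadjusted p under 0.05 and none was higher, and the median was -0.12. In 3 of them the groups did not overlap. Tgfb3 held 91.5, 71.2, 75.5, 89.4 and 67.1 CPM early and 59.8, 62.4, 58.3 and 57.4 CPM late, a log2 fold change of -0.41. Id3 held 55.8, 52.0, 61.4, 60.9 and 56.4 CPM early and 41.0, 42.8, 51.2 and 47.2 CPM late (-0.33). Tgfb2 had a log2 fold change of -0.20, Smad3 of -0.19 and Id2 of -0.20. Ltbp2 had the lowest estimate of the list, at -0.55. Tgfb1 (0.08), Smad7 (0.01) and Id1 (-0.00) did not share this. No adjusted p in the list was under 0.343 in edgeR's main test, while DESeq2 and edgeR without a filter on low counts each called 2, Tgfb3 and Id3.

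Type 2 alveolar cells make surfactant and carry lipid metabolism genes, and 16 of their genes were tested. At an unadjusted p under 0.05, 5 were lower in late and none higher, the list's median log2 fold change was -0.17, and 15 of 16 members were below 0. EdgeR called none in the main test and 1 without a filter on low counts, and DESeq2 called Elovl1, Abca3 and Lpcat1 as lower. In 5 the groups did not overlap: Elovl1, Lpcat1, Abca3, Etv5 and Slc34a2. Lpcat1, which makes the saturated lecithin of surfactant, held 382, 398, 422, 439 and 364 CPM early and 358, 318, 303 and 323 CPM late (log2 fold change -0.30, 95% interval -0.45 to -0.15). Abca3, the lipid pump of lamellar bodies, held 548, 541, 543, 556 and 507 CPM early and 483, 469, 461 and 449 CPM late (-0.21). The list median was -0.16, -0.14, -0.12 and -0.22 in the 4 late libraries, and between -0.06 and 0.08 in the early libraries.

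The surfactant proteins themselves were not past the test. Sftpc was at -0.20 (95% interval -0.42 to 0.02), Sftpd at -0.22 (-0.51 to 0.07), Sftpa1 at -0.10 (-0.35 to 0.15) and Sftpb at -0.01 (-0.20 to 0.17). The summed list ran from 24540 to 28820 CPM early and 23070 to 24820 CPM late, so the sums overlapped. Bulk RNA cannot tell fewer cells of a type from less RNA per cell, and this holds for each cell-type list below. Among 14 type 1 alveolar genes, 3 were lower at an unadjusted p under 0.05 (Igfbp2, Krt7 and Aqp5) and the median was -0.06.

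**Figure D4:**
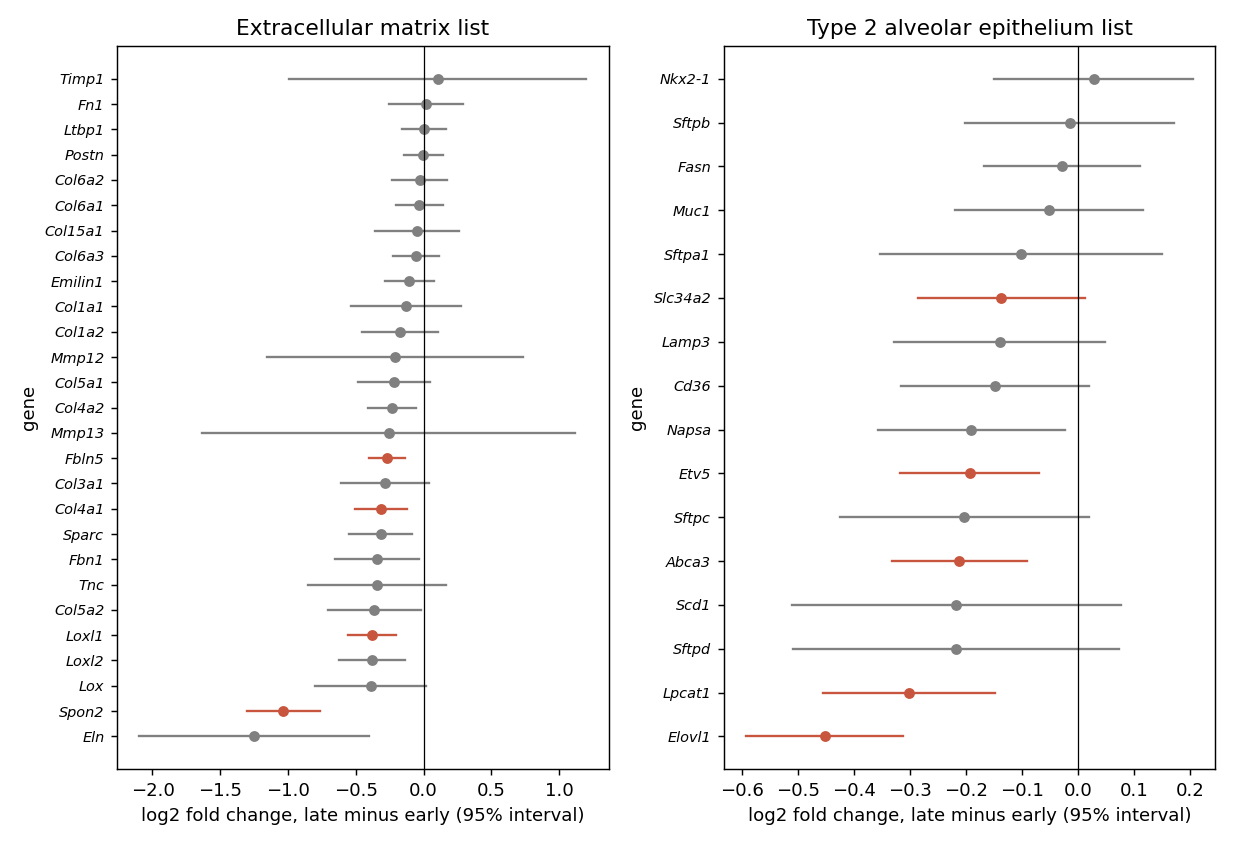
Log2 fold change (point) and 95% interval (line), late minus early MSC, for the 27 matrix genes and 16 type 2 alveolar genes, ordered by value. Red marks genes whose 4 late libraries all lay below the 5 early ones; Spon2 at -1.03 is the only one past edgeR's adjusted threshold in the main comparison, and Eln at -1.25 has the lowest estimate of the matrix list with a wide interval.

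Capillary endothelium (18 tested) had 4 genes lower at an unadjusted p under 0.05 and none higher, with a median of -0.09. They were Aplnr, the apelin receptor of capillary cells, its ligand Apln, the sialomucin Emcn and the tight-junction gene Cldn5. Aplnr held 50.3, 69.2, 60.8, 43.99 and 49.7 CPM early and 42.2, 37.7, 38.2 and 38.1 CPM late, so no late library reached an early one. Its log2 fold change was -0.49 (95% interval -0.74 to -0.24). Cd34 of the 9 vessel adhesion genes had a log2 fold change of -0.21 and did not overlap. Mfap5, a fibroblast microfibril gene, had one of -0.48 and also lay wholly below. DESeq2 called Aplnr and Mfap5, and edgeR's main test called neither.

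On the other side, smooth muscle (14 tested), club cells (12) and ciliated cells (17) had more genes higher than lower. At an unadjusted p under 0.05 these were 4, 2 and 4 genes, and none was lower. The medians were 0.14, 0.14 and 0.10, and 13, 11 and 15 members were above 0. Synpo2, an actin-bundling protein of smooth muscle, held 97.7, 97.4, 89.1, 85.5 and 93.4 CPM early and 103, 114, 103 and 118 CPM late (log2 fold change 0.24). Myh11, Myocd and Actg2 followed at 0.26, 0.29 and 0.30. Fmo2, the flavin mono-oxygenase of club cells, held 481.5, 608.7, 848.1, 564.3 and 582.2 CPM early and 792, 756.6, 841.5 and 1151 CPM late (0.52), and the groups overlapped. Hydin, Cfap43, Dnah11 and Ccdc39 were the 4 ciliated genes, at 0.19 to 0.29. Club-cell markers were highest in late-MSC replicate 5 (sum 13720 CPM), against 10610 to 12130 CPM in the other late libraries.

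Cholesterol synthesis (19 tested) had 4 genes higher at an unadjusted p under 0.05 and none lower, with a median of 0.09. They were Fdps (0.48), Lss (0.28), Dhcr7 (0.22) and Srebf2 (0.13), the last being the pathway's transcription factor. Fdps held 2.88, 3.45, 3.37, 1.94 and 3.41 CPM early and 4.43, 4.43, 3.76 and 4.19 CPM late. Srebf2 also lay wholly above the early libraries.

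Immediate early genes, which respond rapidly to growth signals and tissue handling, had 4 of 20 lower at an unadjusted p under 0.05 (Junb, Fos, Ier2 and Egr1) and none higher. Junb held 140, 141, 142, 141 and 143 CPM early and 86.9, 122, 121 and 92.6 CPM late, a log2 fold change of -0.42. The early values lay close together, and the late values were lower and more spread. Lif, a cytokine of the interleukin-6 family listed with MSC-type mediators, held 10.2, 8.87, 7.46, 9.49 and 8.19 CPM early and 5.97, 7.33, 6.34 and 6.20 CPM late (-0.45). Nnat, an imprinted gene of neuronatin, held 14.9, 12.2, 16.8, 15.8 and 12.1 CPM early and 10.6, 9.99, 9.97 and 7.77 CPM late (-0.58). DESeq2 called Junb, Lif and Nnat, and edgeR without a filter on low counts called Nnat, while edgeR's main test called none of them.

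Immune genes were described in 15 B-cell, 20 plasma-cell and antibody constant, 17 T-cell, 16 neutrophil, 15 monocyte and interstitial macrophage, and 23 type 2 inflammation genes that were tested. None was called by edgeR or DESeq2. At an unadjusted p under 0.05 the type 2 list had 1 higher and 1 lower, the plasma-cell list 3 lower, the monocyte list 3 lower, the neutrophil list 2 lower and the B-cell and T-cell lists none. Among all genes tested, 5.49% were higher and 3.99% lower at that threshold. The type 2 cytokine Il13 was at 0.10 (95% interval -0.79 to 0.99), Il4 at -0.02 (-0.53 to 0.49) and Il5 at 0.14 (-0.70 to 0.97). These intervals admit more than 1.5-fold in either direction for Il13 and Il5, so a missed threshold does not show that the groups are alike.

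Late-MSC replicate 5 had the lowest list median of the 9 for B cells, neutrophils and T cells. For B cells it stood at -0.79 (log2 relative to the early mean) against 0.21, 0.01 and -0.20 in the other late libraries. For neutrophils it stood at -0.96 against -0.46, -0.08 and 0.16, and for T cells at -0.51 against -0.15, 0.07 and 0.17. Without this library the median log2 fold change of the T-cell list was 0.04, against -0.07 with it, and that of the B-cell list was -0.02, against -0.16 with it. Iglc1, a lambda light-chain constant gene, held 31.9, 9.41, 37.9, 96.8 and 80.5 CPM early and 13.4, 13.7, 15.5 and 13.2 CPM late. The early values ran from 9.41 to 96.8 CPM, and early-MSC replicate 2 lay below all 4 late libraries, so the groups overlapped (log2 fold change -1.88, 95% interval -3.39 to -0.37). Saa3 and Cxcl13 were high in late-MSC replicate 4, at 207 and 20.8 CPM.

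Cytosolic ribosomal protein genes lay on one side: all 53 tested members were below 0, with a median of -0.14 and a range from -0.26 to -0.05. Of these, 12 were lower at an unadjusted p under 0.05, none was called by edgeR or DESeq2, and none had groups apart. Over all genes tested, 49.5% had a log2 fold change above 0. The ribosomal list was not alone in this. All 24 replication-dependent histone genes (median -0.19), all 8 erythroid genes (-0.28) and 19 of 20 plasma-cell and antibody genes (-0.25) were below 0 too. The 53 ribosomal protein genes were read in the same 9 libraries and are not separate observations of the groups. The median over the list was -0.21, -0.15, 0.06 and -0.27 in the late libraries and between -0.16 and 0.10 in the early libraries, so late-MSC replicate 4 did not share the direction. The share of counts in ribosomal protein genes was 1.83 ± 0.105% early and 1.69 ± 0.150% late (SD, n = 5 and 4; exact two-sided permutation p 0.175, adjusted 0.635 over 8 shares). The mitochondrial share was 3.14 ± 0.277% and 3.33 ± 0.339% (exact permutation p 0.397, adjusted 0.635). None of the 8 shares passed, and 4 libraries against 5 cannot give a two-sided p below 0.0159.

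**Figure D5:**
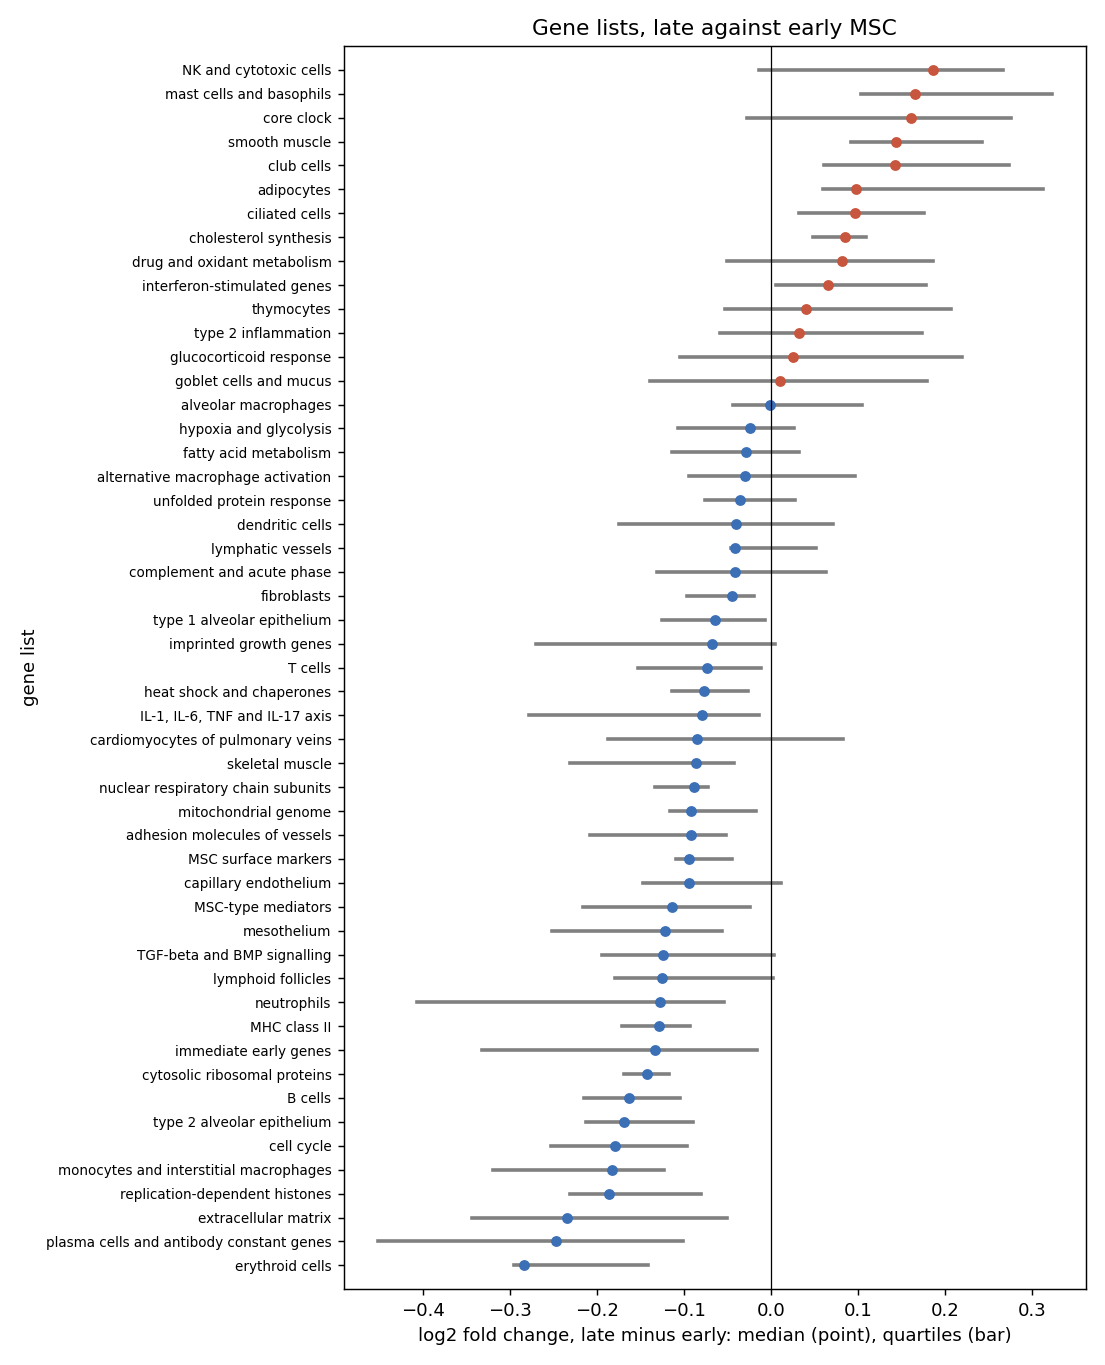
Median log2 fold change, late minus early MSC (point), and interquartile range of the members (bar) for each of the 51 gene lists, ordered by the median; red points lie above 0 and blue points below. The highest medians were of the natural killer and cytotoxic (0.19), mast cell and basophil (0.17), core clock (0.16), smooth muscle (0.14) and club-cell (0.14) lists. The lowest were of the erythroid (-0.28), plasma-cell and antibody (-0.25) and matrix (-0.23) lists. The replication-dependent histone (-0.19), monocyte (-0.18), cell-cycle (-0.18) and type 2 alveolar (-0.17) lists came next.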

How the data were processed

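Lung lobes kept in RNAlater were extracted and total RNA with an integrity number above 8 was made into stranded total RNA libraries, per the labels' protocols. The authors deposited whole-number read counts for each Ensembl gene and library, unnormalised. STAR 2.5.3a and build GRCm38 are named in the submitters' processing notes; the sources used here name neither the counter nor its strand option nor the gene models. Of 55421 genes in the table, 55240 matched the GENCODE annotation of GRCm38 used for names and positions, and 34792 had a count in some of the 9 libraries.

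Counts were tested with edgeR 4.0.16 in R 4.3.3 (TMM scaling, filterByExpr, quasi-likelihood F test with robust shrinkage, only these 9 libraries, no covariate), with two-sided p-values adjusted by Benjamini-Hochberg over all 19315 genes kept, of which 15080 are protein-coding. Levels are CPM on TMM-scaled library sizes (factors 0.981 to 1.02), and sums over lists are CPM on the plain totals. The single-gene levels of late-MSC replicate 3 came from a separate TMM scaling of all MSC libraries, that library included. They are therefore not on exactly the same scale as the levels of the 9. Replicate numbers follow accession order and pair nothing. Shares of counts were compared by exact permutation in Python 3.11.15 with scipy 1.17.1, and figures were drawn with matplotlib 3.10.9. Alternative settings covered RLE or upper-quartile scaling, 2 other filters, DESeq2 1.42.0, limma voom with quality weights (limma 3.58.1), no robust shrinkage, other sets of libraries in the fit, 1 surrogate variable (sva 3.50.0), a fold threshold of 1.5 and leaving out each library. The script was tested on simulated data. Genes are named by rule: because fewer than 10 were called, the 10 lowest p-values on either side, with a mean CPM of 1 or more and without predicted genes, pseudogenes or receptor variable segments, and up to 3 members of each list. Further members of the clock list and of other described lists are given as well. The comparison, its libraries and the 51 gene lists were chosen with earlier results of these data known. Saline-treated mice were not analysed here. Values of 1 gene are not reported here.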

Additional observations from a re-analysis of the deposited data

Results flagged for a closer look

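Within a group of 4 or 5 libraries, a sample was marked where its gap to the nearest other sample was large for the group's range (Dixon's test at 95%); it was applied to 240 groups of values, of which 10 were marked, and chance alone marks about 5%. In late-MSC replicate 5, Map3k6 held 38.5 CPM and Per1 held 160 CPM, each above the other late libraries. In late-MSC replicate 1, Aplnr held 42.2 CPM, the highest of the late libraries, and in late-MSC replicate 2, Smad3 held 71.4 CPM, also the highest. In the early group, Cfap43 held 43.3 CPM in replicate 3, Fbln5 held 105 CPM in replicate 5, Fos held 56.0 CPM in replicate 1 and Nfkbia held 80.03 CPM in replicate 4, each the lowest of its group. The share of counts in ribosomal protein genes was 1.65% in early-MSC replicate 2, the lowest early library, and the 50 most abundant genes took 16.6% of the counts in late-MSC replicate 2, the lowest late library. Outside the comparison, Rag1 held 2024 CPM in late-MSC replicate 3. The causes were not tested.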

How the results depend on the processing

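Of the 21 alternatives, scaling by RLE or upper quartile, a filter at a mean of 1 CPM and limma voom with quality weights each gave 1 call, lower in late. Without a filter on low counts 23 genes were called, 5 higher and 18 lower, among 34792 tested, and DESeq2 called 70, 21 higher and 49 lower. No gene was called without robust shrinkage (1825 at an unadjusted p under 0.05), with HDM libraries in the fit (940), with late-MSC replicate 3 added (1586), with all 15 libraries (1514), with 1 surrogate variable (811) or against a fold of 1.5 (51). Leaving out 1 library gave 0 to 1 calls, 0 to 0 higher and 0 to 1 lower, by edgeR, with 1168 to 3266 genes at an unadjusted p under 0.05; the call without late-MSC replicate 1 was Adamts17, not Spon2. The causes were not tested. Medians of 20 of the 51 lists kept their sign under each of the 20 alternatives that gave a list median. Among them were the core clock, matrix, type 2 alveolar, TGF-beta and ribosomal protein lists. The B-cell, plasma-cell, monocyte, erythroid, natural killer and club-cell lists kept theirs as well. Another 31 lists changed sign under at least 1 alternative, 17 of them with the surrogate variable. The smooth muscle list did so only with all 15 libraries. The ciliated list did so with late-MSC replicate 3 added (-0.02) and with all 15 libraries (-0.03). No paired analysis was possible because replicate numbers follow accession order and the columns carry no pairing.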
